A study of Mus musculus with 12 samples.

Results

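The guanylate-binding proteins (Gbp genes) are a family of large GTPases that interferon, above all interferon-gamma, switches on in most cell types. The 9 genes described here, Gbp2, Gbp3, Gbp4, Gbp5, Gbp6, Gbp7, Gbp8, Gbp9 and Gbp10, were taken by symbol from the table of raw counts, which holds 45777 genes. All 9 passed the filter on low counts, which left 17885 genes for testing. RNA came from 12 tumours or tumour pieces of 393P, a line of mouse lung cancer cells injected subcutaneously into male 129S2/SvPasCrl mice at 8 weeks of age. The 4 groups of 3 libraries were MAVS-reconstituted tumours under the MPS1 inhibitor, MAVS-reconstituted tumours under control treatment, MAVS-knockout tumours under the MPS1 inhibitor and MAVS-knockout tumours under control treatment. MAVS is the mitochondrial adaptor through which cytosolic RNA sensors switch on interferon genes, and MPS1 (gene Ttk) is a kinase of the mitotic spindle checkpoint whose inhibition makes chromosomes missegregate. The inhibitor was BAY-1217389 at 5 mg/kg, given 2 times daily for 2 days, with harvest on the next day. The study asked which expression changes after pulsed MPS1 inhibition depend on MAVS.

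The label knockout or reconstituted describes the injected cells, and the mice themselves carried host cells with their own Mavs. The sample titles name the knockout cells Luc, a term whose meaning is not stated. The sources used here do not say whether each population was 1 clone, so MAVS genotype cannot be told apart from any other difference between the injected populations. Each library holds RNA of tumour and host cells together, so that more cells of a type and more RNA per cell cannot be told apart.

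Gbp proteins belong to the dynamin superfamily. Interferon-gamma acts through JAK kinases and induces the transcription factor IRF1, which works at Gbp promoters. Type I interferon reaches overlapping promoters through a complex that holds STAT2 and IRF9 and binds the interferon-stimulated response element (ISRE). The proteins are known for coating the vacuoles and membranes of intracellular microbes and for promoting inflammasome activation through caspase-11 (gene Casp4 here). In mice the genes lie in a cluster on chromosome 3 and another on chromosome 5. In a tumour they can be expressed by cancer cells and by host cells alike.

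In the GRCm38.p6 annotation, Gbp5 (chr3:142496934-142522344), Gbp7 (chr3:142530336-142550151), Gbp3 (chr3:142560016-142573213) and Gbp2 (chr3:142620663-142638008) lay on the plus strand. Gbp8 (chr5:105012513-105053609), Gbp9 (chr5:105076464-105110357), Gbp4 (chr5:105115767-105139586), Gbp10 (chr5:105215699-105239533) and Gbp6 (chr5:105270702-105295871) lay on the minus strand. All 9 were annotated as protein-coding.

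The RefSeq promoter table of the same build, which spans 250 bases before each start site and 50 bases from it, held 4 of the 9 genes. Gbp4, Gbp6, Gbp8, Gbp9 and Gbp10 were not matched. The ISRE core, searched as GAAANNGAAA on both strands (TTTCNNTTTC on the other), was found upstream of the start site in 4 of these 4 genes. It was found upstream of the start in 2.98% of the 32851 promoters in the table. The windows around these matches are shown because the 4 genes moved together in the tumours. Each is given on the plus strand, 5′ to 3′, with the ISRE core in capitals and 25 bases on either side. The windows lay at chr3:142620579-142620638 for Gbp2, chr3:142559974-142560039 for Gbp3, chr3:142496744-142496803 for Gbp5 and chr3:142530258-142530317 for Gbp7.
Gbp2: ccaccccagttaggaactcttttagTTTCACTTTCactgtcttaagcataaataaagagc
Gbp3: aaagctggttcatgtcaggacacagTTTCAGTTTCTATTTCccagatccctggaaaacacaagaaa
Gbp5: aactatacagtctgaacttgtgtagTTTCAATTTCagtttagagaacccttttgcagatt
Gbp7: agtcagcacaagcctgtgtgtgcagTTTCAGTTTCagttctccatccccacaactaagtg

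The core ended 50 bases before the start site in Gbp2, 44 bases before it in Gbp7 and 156 bases before it in Gbp5. In Gbp3 there were 2 overlapping cores, ending 36 and 30 bases before the first of 2 start sites in the promoter table. These letters were not in the window of the other start site. The first start site, chr3:142560044, lay inside the gene span given above, which starts at chr3:142560016, so the cores lay closer to the first base of that span. The core of a STAT site, searched as TTCNNNGAA (its own reverse complement), was found upstream in 2 of the 4 genes. Gbp5 held this core starting 245 and 52 bases before the start site, and Gbp7 held it starting 106 and 87 bases before. It was present upstream in 7.02% of all promoters in the table. A match of letters is a description and does not show that a factor bound there.

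Libraries held 52983715 to 69108411 counts, and the lowest member value, 7.40 CPM for Gbp10 (CPM are counts normalised to depth and scaled for library composition), lay well above the 0.0434 to 0.0566 CPM that 3 counts stood for. Mavs itself had 50.1, 53.8 and 62.8 CPM in reconstituted inhibitor tumours, 85.1, 68.9 and 59.1 CPM in reconstituted control tumours, 43.5, 39.4 and 41.0 CPM in knockout inhibitor tumours and 40.5, 42.5 and 45.7 CPM in knockout control tumours. The 6 reconstituted libraries thus all exceeded the 6 knockout libraries, in which Mavs transcript was still counted. Ttk, the gene of the drug target, had 15.2 to 22.5 CPM over the 12 libraries. The epithelial markers Krt8, Krt18, Krt7, Krt19, Epcam and Cdh1 were detected in every library of this epithelial tumour line, while Cldn7 was listed at 0 throughout. The first reconstituted inhibitor library stood apart by its skeletal muscle genes (summed 2292 CPM over 6 genes, against 1.41 to 581 CPM in the other 11 libraries) and by the lowest sum of 6 fibroblast and pericyte genes (2099 CPM).

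The 9 Gbp genes together were a visible part of the transcriptome. Their summed level was 5946, 2271 and 5734 CPM in reconstituted inhibitor tumours, 1252, 921 and 3603 CPM in reconstituted control tumours, 655, 1419 and 1072 CPM in knockout inhibitor tumours and 1561, 462 and 827 CPM in knockout control tumours. As a share of all counts this came to between 0.232% and 0.568% in the first group and between 0.0465% and 0.150% in the last. Within each genotype and treatment the libraries differed several-fold, and the third reconstituted control library and the first knockout control library were the highest of their groups.

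Among the genes of chromosome 3, Gbp2 encodes a prenylated, membrane-targeted protein. Gbp2 had 2321, 815 and 2035 CPM in reconstituted inhibitor tumours and 434, 296 and 1276 CPM in reconstituted control tumours. It had 239.6, 579 and 422 CPM in knockout inhibitor tumours and 584, 183 and 338 CPM in knockout control tumours. All 3 reconstituted inhibitor libraries lay above all knockout libraries, whereas the reconstituted control libraries overlapped with every other group.

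Gbp3 had 1221, 485 and 1104 CPM in reconstituted inhibitor tumours and 272, 189 and 709 CPM in reconstituted control tumours. It had 95.6, 250.0 and 186 CPM in knockout inhibitor tumours and 275, 63.6 and 134 CPM in knockout control tumours. The groups separated and overlapped as for Gbp2, and the second knockout control library was the lowest of all 12 for both genes.

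Gbp5, also prenylated and linked in mice to activation of the NLRP3 inflammasome, ran at a lower level. It had 203, 72.3 and 199.7 CPM in reconstituted inhibitor tumours and 33.0, 23.1 and 108 CPM in reconstituted control tumours. It had 17.6, 40.6 and 32.0 CPM in knockout inhibitor tumours and 48.8, 11.1 and 21.6 CPM in knockout control tumours. The third reconstituted control library exceeded the second reconstituted inhibitor library, so the treatments overlapped in reconstituted tumours.

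Gbp7, linked in mouse macrophages to the delivery of autophagy and NADPH oxidase components, varied less. It had 156, 95.1 and 231 CPM in reconstituted inhibitor tumours and 74.8, 66.9 and 153 CPM in reconstituted control tumours. It had 54.2, 77.9 and 68.7 CPM in knockout inhibitor tumours and 84.8, 35.7 and 57.2 CPM in knockout control tumours. The lowest reconstituted inhibitor library was still above the highest knockout library.

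Among the genes of chromosome 5, Gbp4 encodes a protein reported in mice to restrain the interferon regulator IRF7. Gbp4 had 632, 240.0 and 742 CPM in reconstituted inhibitor tumours and 107, 90.6 and 394 CPM in reconstituted control tumours. It had 72.8, 154 and 115 CPM in knockout inhibitor tumours and 205, 40.2 and 70.1 CPM in knockout control tumours. The first knockout control library was above 2 of the 3 reconstituted control libraries.

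Gbp6 and Gbp10 are close copies of each other. Of all 50-base words in the Gbp10 transcript, 70.6% also occurred in Gbp6, and 62.3% of those in Gbp6 occurred in Gbp10. The sources used here do not say how reads shared between genes were counted, so the separate values of this pair are uncertain. For Gbp8 the share of words found in any other family gene was 21.2%, for Gbp4 12.8% and for Gbp9 9.56%, and the 4 genes of chromosome 3 had at most 4.79%.

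Gbp6 had 669, 221 and 632 CPM in reconstituted inhibitor tumours and 105, 70.8 and 381 CPM in reconstituted control tumours. It had 46.4, 112 and 82.0 CPM in knockout inhibitor tumours and 129, 28.6 and 53.7 CPM in knockout control tumours. Gbp6 thus repeated the pattern of Gbp3, and only the third reconstituted control library exceeded any reconstituted inhibitor library.

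Gbp10 had 273, 86.2 and 268 CPM in reconstituted inhibitor tumours and 36.4, 22.0 and 149 CPM in reconstituted control tumours. It had 15.2, 35.7 and 24.4 CPM in knockout inhibitor tumours and 40.4, 7.40 and 16.4 CPM in knockout control tumours. Its highest library was 36.9-fold above its lowest, the widest span of the 9 genes, and the narrowest was 5.51-fold for Gbp9.

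Gbp8 had the lowest level per transcript length when averaged over the groups, although Gbp10 was lower in knockout control tumours. It had 68.0, 39.1 and 70.7 CPM in reconstituted inhibitor tumours and 18.7, 18.1 and 50.1 CPM in reconstituted control tumours. It had 14.1, 18.5 and 16.6 CPM in knockout inhibitor tumours and 22.7, 9.92 and 16.3 CPM in knockout control tumours. The 6 knockout libraries ran from 9.92 to 22.7 CPM, and the first 2 reconstituted control libraries were within their range.

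Gbp9 had 404, 217 and 452 CPM in reconstituted inhibitor tumours and 171, 145 and 384 CPM in reconstituted control tumours. It had 98.8, 152 and 126 CPM in knockout inhibitor tumours and 170.4, 82.0 and 120.2 CPM in knockout control tumours. Here too the third reconstituted control library, alone of its group, exceeded any reconstituted inhibitor library.

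**Figure D1:**
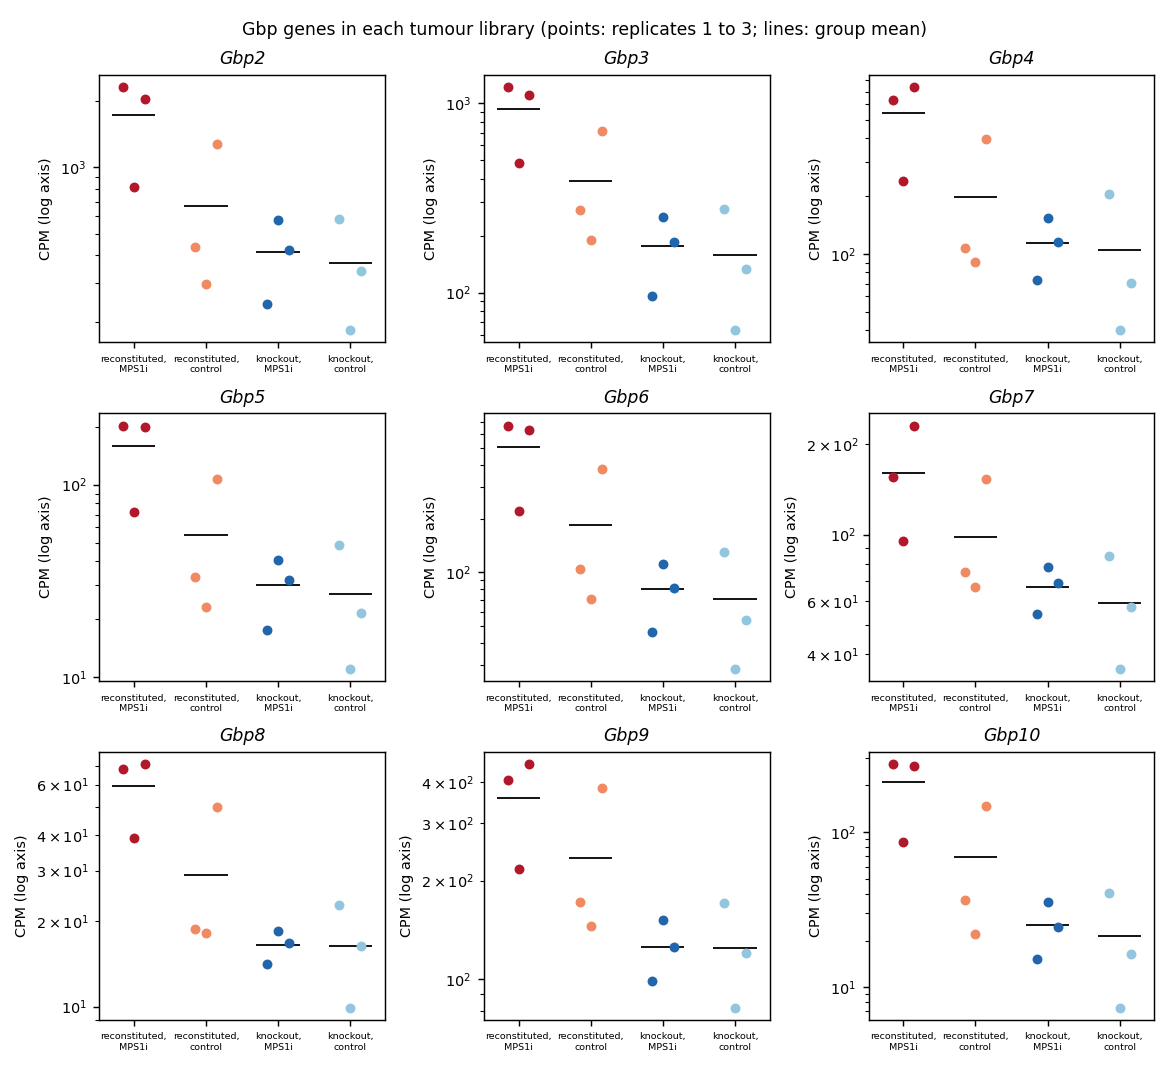
Level of each Gbp gene in the 12 libraries, in CPM on a log axis with its own range per gene. Points are replicates 1 to 3 of each group and horizontal lines are group means; in all 9 panels the 3 reconstituted inhibitor libraries lie above the 6 knockout libraries, and the third reconstituted control library lies above the second reconstituted inhibitor library.

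The first question was how the genotypes differed under the MPS1 inhibitor. The difference of reconstituted minus knockout tumours was positive for 9 of 9 Gbp genes and for 51.1% of all tested genes, with a median of 2.24 on the log2 scale, beside a median of 0.0096 over all 17885 genes. The 3 reconstituted inhibitor libraries lay above the 3 knockout inhibitor libraries for 9 of 9 members, a separation in that direction that 10.9% of all tested genes showed. By edgeR's quasi-likelihood test with Benjamini-Hochberg adjustment over all tested genes, 0 of 9 members passed an adjusted p below 0.05, which 0.649% of all genes did. That share depended on single libraries, since edgeR called 116 genes with all 12, 0 without the third knockout inhibitor library and 2816 without the third reconstituted inhibitor library. At an unadjusted p below 0.05 there were 9 of 9 members and 19.7% of all genes. DESeq2 called 7 of the 9, leaving out Gbp4 (adjusted p = 0.0581) and Gbp7 (adjusted p = 0.0699). Over all genes, it called 1168 of the 16189 to which it gave an adjusted p.

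The size of this difference varied between members. It was largest for Gbp10, at 3.06 ± 0.81 (log2, SE; edgeR adjusted p = 0.102), and 2.67 ± 0.73 for its close copy Gbp6 (adjusted p = 0.111). Gbp3 and Gbp5 both had a difference of 2.40, with SEs of 0.64 and 0.68 and adjusted p-values of 0.103 and 0.117. For Gbp4 the estimate was 2.24 ± 0.71 (adjusted p = 0.137) and for Gbp2 2.06 ± 0.62 (adjusted p = 0.126). Gbp8, the member nearest to the threshold, had a difference of 1.85 ± 0.42 (adjusted p = 0.0698), a fitted ratio of 3.61 with a 95% confidence interval of 0.93 to 2.77 on the log2 scale. For Gbp9 it was 1.51 ± 0.40 (adjusted p = 0.104) and for Gbp7 1.26 ± 0.40 (adjusted p = 0.137). Gbp8 passed when only the 6 libraries compared entered the fit (adjusted p = 0.0386), without the third reconstituted inhibitor library (0.0367) and without the third reconstituted control library (0.0229), which shares in the estimate of spread.

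In control-treated tumours the estimate of the same difference was lower for every member, and none passed. The median was 0.91 on the log2 scale, from 0.73 ± 0.40 for Gbp7 to 1.69 ± 0.77 for Gbp10, beside a median of 0.0030 over all genes, and the sign was positive for 9 of 9 members and 50.4% of all genes. No member passed in edgeR (0 of 9, adjusted p from 0.250 to 0.494) or in DESeq2 (0 of 9). Over all genes, 0.14% passed in edgeR and 721 of 14647 in DESeq2. Of the members only Gbp9 had an unadjusted p below 0.05 in edgeR, as did 18.7% of all genes. The reconstituted control libraries lay above the knockout control libraries for 0 of 9 members, while 15.6% of all genes showed that separation. The first knockout control library lay above 2 reconstituted control libraries for 8 members and above 1 for Gbp9. Without the third reconstituted control library the median was 0.26, with Gbp2 at -0.011 and Gbp4 at -0.085, and without the first knockout control library it was 1.74.

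Averaged over both treatments, the genotype difference had a median of 1.57 over the members and of 0.00028 over all genes, and it was positive for 9 of 9 members and 50.1% of all genes. Gbp8 was called, at 1.34 ± 0.29 (log2, SE; edgeR adjusted p = 0.0491), with mean levels of 59.2 ± 17.5 and 28.9 ± 18.3 CPM in reconstituted inhibitor and control tumours and of 16.4 ± 2.17 and 16.3 ± 6.41 CPM in knockout inhibitor and control tumours (SD, n = 3 each). The other 8 members had adjusted p-values of 0.0633 to 0.150, with differences from 1.00 ± 0.28 for Gbp7 to 2.37 ± 0.56 for Gbp10. In this comparison 1 of 9 members and 1.56% of all genes were called, and an unadjusted p below 0.05 was reached by 9 of 9 members and 15.1% of all genes. DESeq2 called 8 of the 9, all but Gbp4 (adjusted p = 0.0715). Over all genes, it called 953 of the 16703 to which it gave an adjusted p. The call of Gbp8 was lost (edgeR adjusted p from 0.0536 to 0.125) in 9 of the 12 fits that each left out 1 library, any of the 6 knockout libraries, the third reconstituted control library or the first or the third reconstituted inhibitor library. The libraries of the 2 genotype comparisons also make up this average, so it is no separate evidence.

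**Figure D2:**
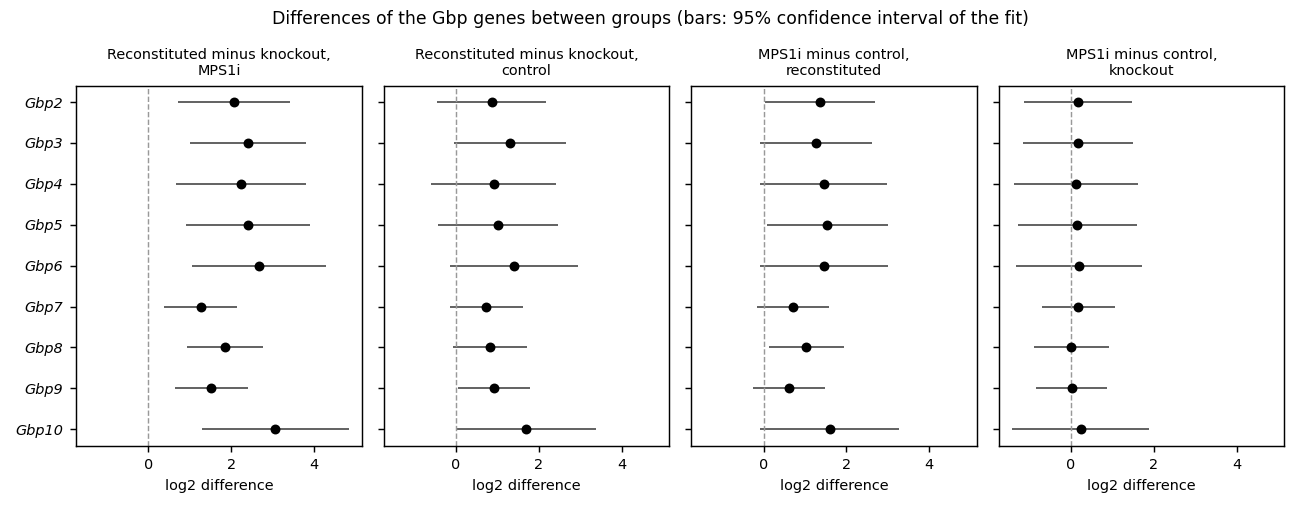
Fitted log2 differences of the 9 Gbp genes in the 4 comparisons between pairs of groups, with bars for the 95% confidence interval of each fit. The intervals lie above 0 for all 9 genes in reconstituted minus knockout tumours under the MPS1 inhibitor, and include 0 for all 9 in the comparison of inhibitor minus control in knockout tumours; the intervals are not adjusted for the number of genes.

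The second question was what the MPS1 inhibitor did within each genotype. In reconstituted tumours the difference of inhibitor minus control was positive for 9 of 9 members and 49.5% of all genes, with a median of 1.37 on the log2 scale, beside -0.0050 over all genes. It ran from 0.61 ± 0.39 for Gbp9 to 1.60 ± 0.76 for Gbp10. Neither any member nor any other gene passed in edgeR (0 of 17885, or 0%), and the adjusted p-values of the members were 0.111 to 0.294. An unadjusted p below 0.05 was found for Gbp8 (1.03 ± 0.41), Gbp5 (1.54 ± 0.66) and Gbp2 (1.37 ± 0.60), thus 3 of 9, and for 32.6% of all genes. DESeq2 called 3495 genes and none of the 9. Without the third reconstituted inhibitor library edgeR called 5683 genes, again with none of the 9 among them. The groups overlapped for 9 of 9 members because the third control library lay above the second inhibitor library, whereas 14.7% of all genes had all 3 inhibitor libraries above. The members' median was 2.23 without that control library and 1.01 without the second control library.

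In knockout tumours the difference of inhibitor minus control was near 0 for every member, with wide intervals. The median was 0.17 on the log2 scale, from 0.01 for Gbp8 and Gbp9 to 0.23 for Gbp10, beside -0.0043 over all genes, and the sign was positive for 9 of 9 members and 48.9% of all genes. The groups overlapped for 9 of 9 members, while 4.47% of all genes had all 3 inhibitor libraries above. For Gbp2 the 95% confidence interval ran from -1.14 to 1.47 and for Gbp8 from -0.89 to 0.90. No gene passed in edgeR (0%), all members having an adjusted p of 1, and 0 of 9 members had an unadjusted p below 0.05, against 1.71% of all genes. DESeq2 called 3 genes and none of the 9. The median was 0.85 without the first and -0.21 without the second knockout control library.

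The difference between these inhibitor effects was tested as an interaction. It was positive for 9 of 9 members and 50.3% of all genes, with a median of 1.20 on the log2 scale, from 0.53 ± 0.56 for Gbp7 to 1.39 ± 0.93 for Gbp5, beside 0.0046 over all genes. The members' adjusted p-values were 0.281 to 0.572 in edgeR, where no gene passed (0%). None of the 9 had an unadjusted p below 0.05, against 24.7% of all genes, and DESeq2 called 1239 genes and none of the 9. Without the third reconstituted inhibitor library edgeR called 4005 genes and 0 of the 9. The members' median was 0.49 without the first knockout control library and 2.06 without the third reconstituted control library. For Gbp8 the interaction was 1.03 ± 0.58, with a 95% confidence interval of -0.24 to 2.29. A dependence of the inhibitor effect on genotype was therefore not shown for any Gbp gene, though the intervals do not show its absence either. Averaged over genotypes, the inhibitor effect on the members had a median of 0.77 and was positive for 9 of 9, as for 49.3% of all genes, with edgeR adjusted p-values of 0.522 to 0.609, 0 of 9 members and 7.82% of all genes at an unadjusted p below 0.05, no call in edgeR (0%) and none among the 9 in DESeq2. These comparisons share libraries with one another, so their common sign is not independent.

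Relative to length, the order of the members was much the same in every group. Gbp2 was the most abundant, at 685 ± 318 CPM per kilobase of transcript in reconstituted inhibitor tumours, 266 ± 211 in reconstituted control tumours, 164 ± 67.4 in knockout inhibitor tumours and 146 ± 80.3 in knockout control tumours (SD, n = 3 each). Gbp3 came next, at 349 ± 148, 145 ± 104, 66.1 ± 28.9 and 58.7 ± 40.2 CPM per kilobase in the same order of groups. Gbp2 ranked first and Gbp3 second in 12 of 12 libraries. Gbp6 was above Gbp4 in 12 of 12, Gbp9 above Gbp10 in 12 of 12 and Gbp7 above Gbp8 in 12 of 12.

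Other neighbours in the order did not separate. Gbp4 was above Gbp9 in only 4 of 12 libraries, although its mean over the groups was higher (52.6 against 48.0 CPM per kilobase). Gbp10 was above Gbp5 in 4 of 12 and Gbp5 above Gbp7 in 5 of 12. Gbp10 and Gbp7 exchanged places between groups. Gbp10 had 59.3 ± 30.2 CPM per kilobase in reconstituted inhibitor tumours, above Gbp7 at 28.6 ± 12.1, but 6.07 ± 4.84 in knockout control tumours, where Gbp7 had 10.6 ± 4.39. These are levels divided by the length of 1 annotated transcript, and the sources used here do not give the gene lengths behind the authors' counts.

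**Figure D3:**
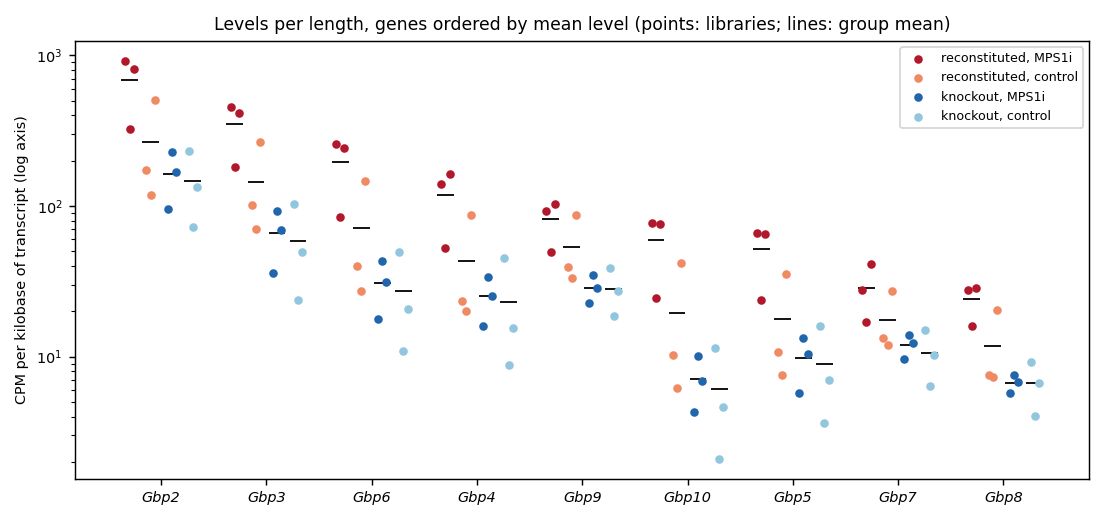
Level of each Gbp gene per kilobase of transcript (CPM per kilobase, log axis) in the 12 libraries, with genes ordered by their mean over the groups. Points are libraries coloured by group and lines are group means; Gbp2 is highest and Gbp3 second in 12 of 12 libraries, and the lower ranks change between libraries.

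The members followed each other closely from library to library. Over the 12 libraries the Pearson correlation of log2 CPM between 2 members ran from 0.963 (Gbp7 with Gbp2) to 0.999 (Gbp10 with Gbp6), with a median of 0.983 over 36 pairs. After the group means were subtracted it was still 0.934 to 0.999. The points share libraries and their depth, and the chromosome 5 genes share sequence, so these values describe the libraries and were not tested. They mean that the 9 genes behaved almost as 1 measurement, and that the counts of 9 of 9 above are not 9 independent observations.

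By the same measure, the 8 genes most like the mean of the members, among 11995 genes with enough signal, included 4 immunity-related GTPases. These were Irgm2 (r = 0.996 over 12 libraries), Iigp1 (0.993), Irgm1 (0.990) and Igtp (0.988), which act with Gbp proteins on pathogen vacuoles. They also included the family genes Gbp2b (0.991) and Gbp11 (0.989), and C1s1 (0.990), a complement serine protease. Gbp2b and Gbp11 are not among the 9 members. Gbp11 is annotated as a transcribed pseudogene, and 19.2% of the 50-base words in its transcript also occurred in other family genes. How shared reads were counted is not stated, so the separate values of Gbp11 are uncertain. Gbp2b, at 4159, 1177 and 3461 CPM in reconstituted inhibitor tumours and 308, 841 and 578 CPM in knockout inhibitor tumours, had a difference of 2.35 ± 0.69 between them (log2, SE; edgeR adjusted p = 0.121), and Gbp11 one of 2.95 ± 0.76 (adjusted p = 0.0949).

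Of the signalling genes upstream of the family, 14 of 15 passed the filter on low counts. Under the MPS1 inhibitor 12 of these 14 had a positive difference of reconstituted minus knockout tumours, with a median of 0.63, and 2 were called, both higher, where 51.1% of all genes had a positive difference and 0.649% were called. They were Stat2, a transducer of type I interferon, at 1.65 ± 0.28 (log2, SE; edgeR adjusted p = 0.0316), and Irf9, the DNA-binding partner of STAT2, at 1.14 ± 0.20 (adjusted p = 0.0321). Next by p came Irf8, a regulator of myeloid genes, at 0.87 ± 0.19 (adjusted p = 0.068), and Socs1, a feedback inhibitor of JAK signalling, at 2.10 ± 0.55 (adjusted p = 0.101). Irf1, through which interferon-gamma reaches Gbp genes, had a difference of 1.61 ± 0.47 (adjusted p = 0.119).

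Stat2 had 175, 139 and 199 CPM in reconstituted inhibitor tumours, 96.2, 85.8 and 167 CPM in reconstituted control tumours, 41.8, 69.3 and 52.8 CPM in knockout inhibitor tumours and 60.9, 38.8 and 47.8 CPM in knockout control tumours. All 6 reconstituted libraries were above all 6 knockout libraries. Irf9 had 77.8, 57.3 and 70.2 CPM in reconstituted inhibitor tumours, 53.7, 45.9 and 68.3 CPM in reconstituted control tumours, 23.8, 36.0 and 33.3 CPM in knockout inhibitor tumours and 39.1, 27.9 and 31.8 CPM in knockout control tumours, with the same separation. The Gbp genes differed here in that their reconstituted and knockout control libraries overlapped. In control tumours the difference was 1.24 ± 0.27 for Stat2 (edgeR adjusted p = 0.117) and for Irf9 0.76 ± 0.20 (adjusted p = 0.155). Averaged over treatments both were called higher, at 1.45 ± 0.19 (adjusted p = 0.00411) and 0.95 ± 0.14 (adjusted p = 0.00689).

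Of the interferon genes, Ifng and Ifnb1 were examined, and both were low. Ifng, the gene of interferon-gamma, had 10.4, 3.26 and 4.61 CPM in reconstituted inhibitor tumours and 0.502, 0.225 and 2.44 CPM in reconstituted control tumours. It had 0.400, 1.55 and 0.891 CPM in knockout inhibitor tumours and 1.05, 0.793 and 0.634 CPM in knockout control tumours. The reconstituted inhibitor libraries were the 3 highest of the 12, and the third reconstituted control library came next. The genotype difference of Ifng under the inhibitor was 2.68 ± 0.79 (log2, SE; edgeR adjusted p = 0.120). The interferon-beta gene Ifnb1 was almost absent, with at most 3 counts in any library, and did not pass the filter.

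Genes of proteins that work with Gbp proteins showed smaller or similar differences under the inhibitor. None was called in edgeR, beside 0.649% of all genes. All 7 immunity-related GTPases had a positive difference of reconstituted minus knockout tumours, beside 51.1% of all genes, with a median of 2.01. An unadjusted p below 0.05 was found for 7 of 7 and separated libraries for 7 of 7, against 19.7% and 10.9% of all genes. The smallest p-values belonged to Irgm2 (2.01 ± 0.55), Irgm1 (1.85 ± 0.52), Igtp (2.40 ± 0.70) and Ifi47 (2.05 ± 0.61), with adjusted p-values of 0.111 to 0.126. Of 8 inflammasome genes 4 had an unadjusted p below 0.05, beside the same 19.7% of all genes, with a median of 0.46 over the 8. These were Casp4, which senses cytosolic lipopolysaccharide (1.37 ± 0.37), the pore-forming Gsdmd (0.71 ± 0.20), the adaptor Pycard (0.99 ± 0.28) and the protease Casp1 (0.75 ± 0.25), with adjusted p-values of 0.107 to 0.147.

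Genes listed for the placing or processing of Gbp proteins had mostly small differences in the same comparison, apart from Rnf213. Of 10 genes listed for vacuole targeting, mainly of the autophagy conjugation machinery that places Gbp proteins, 0 were called, beside 0.649% of all genes. Their median was 0.13. The smallest p was that of Rnf213, an interferon-induced ubiquitin ligase that coats intracellular microbes, at 0.95 ± 0.22 (edgeR adjusted p = 0.0711), followed by Gabarap (0.45 ± 0.17, adjusted p = 0.181), Map1lc3b (0.32 ± 0.13, adjusted p = 0.215) and Atg3 (0.15 ± 0.07, adjusted p = 0.254). Rnf213 was called higher when averaged over treatments, at 1.07 ± 0.16 (adjusted p = 0.00687). Of 5 genes of protein prenylation, whose enzymes attach lipid anchors like those of Gbp2 and Gbp5 or process the anchored proteins, 0 were called. The median of the 5 was -0.03. The smallest p-values were those of the processing protease Rce1 (0.27 ± 0.15), of Pggt1b (-0.09 ± 0.07), of the methyltransferase Icmt (-0.05 ± 0.06) and of Fntb (-0.03 ± 0.10). These gave edgeR adjusted p-values of 0.330 to 0.876. In control tumours none of these 6 lists held a called gene in edgeR, where 0.14% of all genes were called.

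Some markers of cytotoxic lymphocytes, like the Gbp genes, had higher levels in reconstituted than in knockout inhibitor tumours. The summed level of 11 T and NK cell markers was 90.1, 110.4 and 100.2 CPM in reconstituted inhibitor tumours, 53.6, 61.2 and 80.8 CPM in reconstituted control tumours, 22.9, 25.5 and 39.2 CPM in knockout inhibitor tumours and 41.7, 16.9 and 23.7 CPM in knockout control tumours. All 6 reconstituted libraries were above all 6 knockout libraries. In reconstituted tumours most of this sum came from Gzmb and Prf1, the cytotoxic granule genes. The other 9 markers, a group formed after the values were seen, summed to 29.3, 35.7 and 32.7 CPM in reconstituted inhibitor tumours, 13.7, 12.9 and 28.6 CPM in reconstituted control tumours, 14.5, 14.7 and 21.3 CPM in knockout inhibitor tumours and 21.6, 10.98 and 13.2 CPM in knockout control tumours. For these 9 markers the reconstituted inhibitor libraries were above all others. The margin was narrow, 29.3 CPM in the first of them against 28.6 CPM in the third reconstituted control library. The Gbp sums overlapped between these groups, since the highest in reconstituted control tumours (3603 CPM) exceeded the lowest in reconstituted inhibitor tumours (2271 CPM). In the 9 markers and in the Gbp genes alike, the reconstituted control libraries overlapped with both knockout groups. The T cell receptor chain gene Cd3e averaged 1.91 ± 0.85 CPM in reconstituted control tumours and 1.93 ± 0.29 CPM in knockout control tumours (SD, n = 3 each). Of all 11 markers, 8 had a positive genotype difference in control tumours, beside 50.4% of all genes, with a median of 0.56. There 3 of 11 had an unadjusted p below 0.05 in edgeR, beside 18.7% of all genes. Called were 0 of 11, beside 0.14% of all genes. Under the MPS1 inhibitor 11 of 11 markers had a positive genotype difference, beside 51.1% of all genes, with a median of 1.08. Of the 11, 2 were called higher, beside 0.649% of all genes. These were Prf1, at 2.72 ± 0.46 (log2 and SE, edgeR adjusted p = 0.0316), and Gzmb, at 2.39 ± 0.39 (adjusted p = 0.0284). The second reconstituted inhibitor library had the highest sum of the 11 markers and the lowest Gbp level of its group. None of the 11 markers was at 0 throughout. Their part in the Gbp differences was not tested.

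The other cell types showed no called marker in this comparison. Only 0.649% of all genes were called in it, so the absence of calls in such short lists says little. The summed level of 8 macrophage markers was 1508 to 1823 CPM in reconstituted inhibitor tumours and 1088 to 1394 CPM in reconstituted control tumours. It was 1075 to 1435 CPM in knockout inhibitor tumours and 1321 to 1640 CPM in knockout control tumours. Under the inhibitor 7 of 8 had a positive genotype difference, beside 51.1% of all genes, with a median of 0.34. An unadjusted p below 0.05 was reached by 5 of 8, beside 19.7% of all genes, and 0 of 8 were called. Of the 4 B cell markers, which summed to at most 0.594 CPM in any library, 1 was tested and not called. In that comparison edgeR also called 0 of 6 tested epithelial, 0 of 6 endothelial, 0 of 6 fibroblast and pericyte, 0 of 5 neutrophil and 0 of 6 skeletal muscle markers, with median differences of 0.035, -0.35, -0.69, 0.17 and 1.59 on the log2 scale. The skeletal muscle markers were positive for 6 of 6, with 0 at an unadjusted p below 0.05, beside 51.1% and 19.7% of all genes. The part of these muscle markers in the Gbp differences was not tested. Without the first reconstituted inhibitor library, which had the highest sum of them, the members' differences under the inhibitor ran from 1.28 to 2.82, with edgeR adjusted p-values of 0.194 to 0.329.

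**Figure D4:**
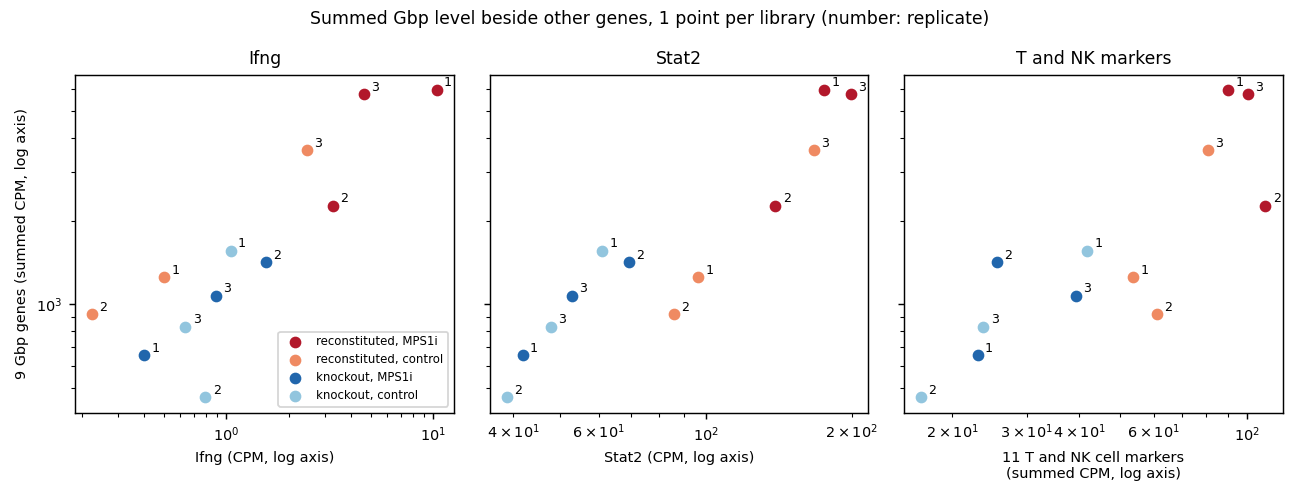
Summed level of the 9 Gbp genes (CPM, log axis) against Ifng, Stat2 and the sum of 11 T and NK cell markers (CPM, log axes), with 1 point per library, coloured by group and numbered by replicate. In the panels for Stat2 and for the T and NK cell markers all 6 reconstituted libraries lie to the right of all 6 knockout libraries, while their Gbp sums overlap in height; without Gzmb and Prf1 the sum of the other 9 markers overlaps between the control groups.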

How the data were processed

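Per the labels' protocols, tumour RNA was purified on columns and treated with DNase before strand-specific mRNA library preparation. The authors deposited 1 table of whole-number counts per gene and library. Per the submitters' processing notes, Trimmomatic, HISAT2 and StringTie were used with build GRCm38 (mm10); the sources used here do not give their versions and roles, the use of strand or the treatment of shared reads. The labels call the samples replicates without naming separate animals, so the p-values reflect only how far these samples spread, and that spread may be technical.

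A single fit over all 12 libraries had a coefficient for each group (edgeR 4.0.16, R 4.3.3: filterByExpr, TMM factors of 0.920 to 1.03, quasi-likelihood F-test). Adjustment by Benjamini-Hochberg ran over 17885 genes, with calls made below an adjusted p of 0.05. The procedure was tested on simulated data. CPM are counts scaled with the TMM factors. Levels per length used the transcripts of the GRCm38 annotation, and promoter sequences, in which motifs were searched, came from RefSeq (GRCm38.p6). Alternatives were RLE factors, no filter, DESeq2 1.42.0, a replicate block, only the libraries compared, and leaving out each library.

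The 9 members, the 6 pathway lists, the 8 marker lists and the tests were chosen with earlier results of these data known. Named genes were all members, Mavs and Ttk, of each pathway list the called genes and up to 4 with the smallest p, and the 8 genes with the most similar pattern (mean log2 CPM of at least 1), of which 1 is not reported here. Irf1, Ifng, Ifnb1 and the marker genes were named beyond this rule, after their values were seen. Irgd is listed in the table as Ifi47.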

Additional observations from a re-analysis of the deposited data

How the results depend on the processing

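For the genotype difference under the MPS1 inhibitor, where edgeR called 0 of 9 members, DESeq2 called 7 and a fit of only the libraries compared called 1; leaving out 1 library gave 0 to 1. For the genotype difference averaged over treatments, where 1 member was called, DESeq2 called 8 and the fit with the replicate block called 0; leaving out 1 library gave 0 to 2. The cause was not tested. Same-numbered libraries of different groups did not deviate together throughout (r of -0.113 to 0.308 over 18 pairs, 9 of them over 0.1), so the numbers were not taken as pairs. Differently numbered libraries had a lower median r, of -0.053, and whether libraries of the same number share a source of deviation was not tested. Over all genes, the genotype difference under the inhibitor had 116 calls, against 1168 in DESeq2, 43 with the block and 64 with only the libraries compared. In controls it had 25, against 721, 15 and 10, and averaged 279, against 953 in DESeq2. The inhibitor effect had 0 calls in reconstituted tumours, against 3495 in DESeq2 and 1 with only the libraries compared, 0 in knockout tumours, against 3 in DESeq2, and 0 averaged, against 1 in DESeq2. The interaction had 0, against 1239 in DESeq2. With 1 library left out, edgeR called 0 to 2816 genes for the genotype difference under the inhibitor, 0 to 80 in controls, 115 to 331 averaged, 0 to 5683 for the inhibitor effect in reconstituted tumours, 0 to 3 averaged and 0 to 4005 for the interaction, and 0 throughout in knockout tumours. The highest of these counts came without the third reconstituted inhibitor library, except the 331, which came without the second. For the difference under the inhibitor, the count was 94, 92 and 92 without the first or the second knockout control or the second reconstituted control library, and was over 1.5 times away from 116 without any of the other 9. RLE factors and no filter on low counts left all 7 counts of called members as they were. The fit of only the libraries compared does not apply to the averaged effects and the interaction, which use all 12.

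Leaving out 1 library changed the sign of 2 members in the genotype difference in controls, Gbp2 (-0.011 to 1.36 on the log2 scale) and Gbp4 (-0.085 to 1.84). For the inhibitor effect in knockout tumours it changed the sign of all 9: Gbp2 (-0.16 to 0.67), Gbp3 (-0.21 to 0.85), Gbp4 (-0.27 to 1.05), Gbp5 (-0.23 to 0.88), Gbp6 (-0.19 to 0.96), Gbp7 (-0.085 to 0.53), Gbp8 (-0.25 to 0.32), Gbp9 (-0.21 to 0.31) and Gbp10 (-0.18 to 1.08). The member median under the inhibitor kept its sign, at 1.93 to 2.59, as did that of the inhibitor effect in reconstituted tumours, at 1.01 to 2.23, and of the interaction, at 0.49 to 2.06. All these fits assume that a group left with 2 libraries varies like the others. Depth did not limit the members, since the lowest had 7.40 CPM.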
